A study of Homo sapiens with 11 samples.

Results

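The genes described here encode the proteins of the human cytosolic ribosome. They were taken by name from the count table: protein-coding rows on an autosome or the X chromosome with a symbol of the RPL, RPS or RPLP type, or RPSA. This rule used no measured value and gave 84 of 78932 human gene rows, 52 for the large subunit and 32 for the small subunit. Polyadenylated RNA was sequenced from engineered myometrial microtissues, which were built to measure contraction induced by oxytocin. All 11 libraries came from hTERT-HM, a single line of human uterine smooth muscle cells immortalised with telomerase and labelled wild type. The formation of the tissues lasts 6 days. Day 1 has 3 libraries, while days 3 and 6 have 4 each, and no other treatment is named, so every comparison is between times in 1 line. The labels do not say that replicates were separate cultures, and p-values therefore measure only the spread between these libraries, which may be technical.

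A ribosome reads messenger RNA on its small subunit and joins amino acids on its large subunit, and most core proteins are present once in each ribosome. The messenger RNAs of these proteins carry a terminal oligopyrimidine tract (TOP), a run of C and T bases that begins with C at the transcription start. The kinase complex mTORC1 and the RNA-binding protein LARP1 control the translation and stability of TOP messenger RNAs, and cells with slower growth usually make fewer ribosomes. Several core genes have a paralog elsewhere in the genome that encodes a near copy of the protein.

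The starts of the genes are shown because a run of C and T bases like this tract was found in most core members and in few paralogs. RefSeq promoter sequences of the build GRCh38.p14 were given for 67 of the 84 members. A run of C followed by at least 4 C or T, read on the transcribed strand and starting within 5 bases of an annotated start, was present in 54 of these 67 genes (80.6%) and in 25.2% of the 27305 genes of the whole promoter set. It was found in 53 of 62 core members (85.5%) and in 1 of 5 paralogs, RPL22L1. Each window below holds 20 bases before the annotated start and 20 from it, with the run in capitals.
RPLP0, chr12:120201092-120201131, minus strand: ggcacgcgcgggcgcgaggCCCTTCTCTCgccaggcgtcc
RPL28, chr19:55385912-55385951, plus strand: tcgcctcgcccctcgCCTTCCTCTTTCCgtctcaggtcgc
RPS16, chr19:39435930-39435969, minus strand: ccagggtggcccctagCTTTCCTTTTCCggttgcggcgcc
RPL39, chrX:119791611-119791650, minus strand: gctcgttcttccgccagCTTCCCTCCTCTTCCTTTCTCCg
RPS27, chr1:153990742-153990781, plus strand: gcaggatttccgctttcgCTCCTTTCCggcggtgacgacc
RPS27L, chr15:63157458-63157497, minus strand: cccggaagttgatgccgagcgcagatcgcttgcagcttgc
RPL22, chr1:6199576-6199615, minus strand: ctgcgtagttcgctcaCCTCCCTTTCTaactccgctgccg
RPL22L1, chr3:170870176-170870215, minus strand: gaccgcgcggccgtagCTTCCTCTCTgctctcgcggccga
RPL26, chr17:8383174-8383213, minus strand: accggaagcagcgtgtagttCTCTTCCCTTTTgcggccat
RPL26L1, chr5:172958709-172958748, plus strand: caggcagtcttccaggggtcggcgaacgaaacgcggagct
The run covered 22 bases in RPL39 and 13 in RPL28, and RPS27L and both annotated starts of RPL26L1 held none. Other motifs were sought in the 300 bases around each start (250 before and 50 after). A gene with several annotated starts was counted if any of them held the motif. CGGAAG on either strand was present in 62.7% of the 67 members and 22.6% of the 27305 genes of the promoter set. GGGCGG was present in 58.2% and 48.3%, TATAAA in 10.4% and 14.0%, and AAGATGGC in 10.4% and 3.5%. The last letters of CGGAAG are the first of AAGATGGC, so these motifs can share bases, and a match describes letters only.

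Counts were summed per gene and library, and levels are given as CPM (counts scaled to 1e6 per library) adjusted by the trimmed mean of M values (TMM). CPM is not corrected for length, so levels are compared between days and not between genes. Library totals ran from 28071813 to 33021509 counts. Summed smooth muscle markers were 1536 to 1877 CPM on day 1, 1586 to 1636 CPM on day 3 and 2579 to 2825 CPM on day 6, while the defining markers PTPRC, EPCAM, CDH1, HBB and ADIPOQ, and also the muscle marker DES, had at most 3 counts in a library. MYH11, the smooth muscle myosin, averaged 1.14, 1.07 and 1.55 CPM on days 1, 3 and 6. Of the 84 members, 82 passed the filter on low counts. RPL3L, the large-subunit paralog of striated muscle, had 0 to 4 counts per library, and RPL10L, a paralog known from testis, had 4 to 12. The limit that a count of 0 allows is 3 counts, which covers counting error only, and neither gene was tested.

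Single libraries stood apart within days. Day 3 replicate 2 had the highest core level of its day: its median core gene lay 0.34 above the gene mean on the log2 scale, against 0.23 to 0.25 in the other day 3 libraries. Day 6 replicate 2 was the highest of day 6, at -0.14 against -0.30 to -0.31. In some members, among them RPL22L1, RPS27L, RPL9 and RPS21, day 6 replicates 2 and 3 both lay above replicates 1 and 4. The share of counts from messenger RNA of the mitochondrial genome was split in the same way (3.58% and 3.30% against 2.42% and 2.22%). The median core gene of replicate 3 was not raised, and the cause of the split was not tested.

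The members together took 3.43%, 3.60% and 3.44% of all counts on day 1. On day 3 they took 4.03%, 4.24%, 4.07% and 4.03%, and on day 6 3.07%, 3.44%, 3.14% and 3.03%. All day 3 libraries lay above every other library, and the day 6 range reached just into that of day 1 through its replicate 2. The group means were 3.49% ± 0.0928 (SD, n = 3), 4.09% ± 0.0995 (n = 4) and 3.17% ± 0.185 (n = 4). In these bulk libraries, fewer cells of a type and less RNA per cell cannot be told apart.

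Both subunits were highest on day 3 and lowest on day 6. Large subunit genes took 2.33% ± 0.0563 of counts on day 1, 2.73% ± 0.0654 on day 3 and 2.10% ± 0.115 on day 6. Small subunit genes took 1.16% ± 0.0369, 1.37% ± 0.035 and 1.07% ± 0.0728 on the same days. The ratio of large to small counts was 2.004 to 2.039 on day 1, 1.98 to 2.009 on day 3 and 1.904 to 2.003 on day 6. The libraries of day 6 had the widest range of this ratio. Replicates 1 and 4 (1.995 and 2.003) lay within the day 3 range, and replicates 2 and 3 (1.939 and 1.904) lay below it. No day 6 library reached the lowest day 1 library (2.004), but replicate 4 came close to it.

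**Figure D1:**
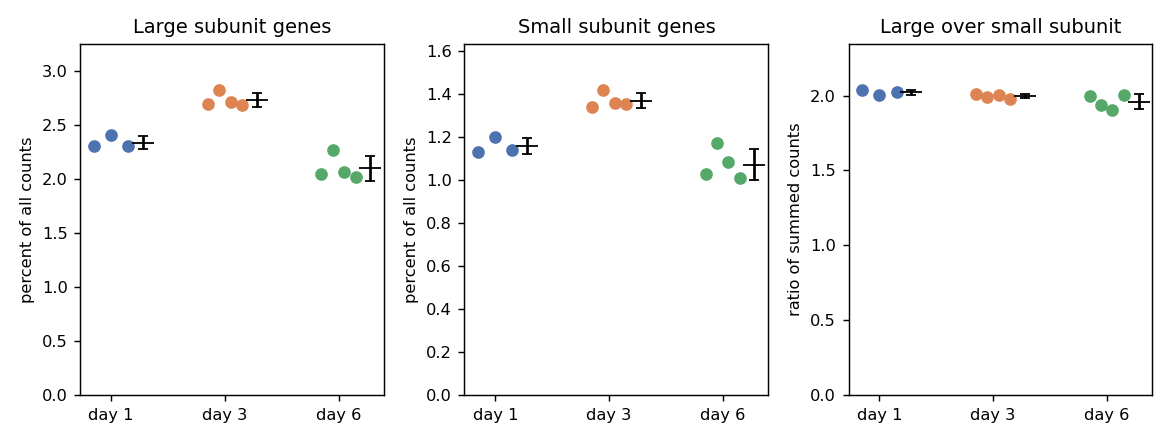
Percent of all counts in large subunit genes (left) and small subunit genes (middle) and the ratio of the summed counts (right), by day. Points are libraries (n = 3, 4 and 4), and bars are the mean ± SD. Both subunits are highest on day 3 (2.73% and 1.37%) and lowest on day 6 (2.10% and 1.07%), while the ratio stays between 1.904 and 2.039.

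Between day 1 and day 3, 62 of the 82 tested members rose and none fell (edgeR quasi-likelihood test, Benjamini-Hochberg adjusted p under 0.05 over 18245 genes). At an unadjusted p under 0.05, 1 member was lower by edgeR, RPS27L, and DESeq2 called 69 higher and 0 lower. Over all tested genes, 12.8% were called in this comparison, 6.88% higher and 5.9% lower. The median log2 change of the members was 0.27, against 0.00 over all genes. For the large subunit, 39 of 50 rose with a median of 0.25, and for the small subunit 23 of 32 rose with a median of 0.30. All day 3 libraries lay above all day 1 libraries for 73 of the 82 members, which was the case for 15.2% of all tested genes. The early count rested in part on single libraries. Leaving out the first day 1 replicate reduced it to 38, and leaving out the second gave 44. It was 46 when either the last replicate of day 1 or replicate 2 of day 3 was dropped.

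Between day 3 and day 6, 74 of the 82 members fell and 3 rose. Here 49.9% of all tested genes were called, 26.4% higher and 23.4% lower. The members' median log2 change was -0.50, against 0.03 over all genes. In the large subunit 45 of 50 fell (median -0.49), and in the small subunit 29 of 32 fell (median -0.52). The day 6 libraries lay wholly below the day 3 libraries for 72 members, against 21.1% of all tested genes. The 3 genes that rose were the paralogs RPL39L, RPL22L1 and RPS27L, and none of the 77 core members rose, by edgeR (0 at an unadjusted p under 0.05) or by DESeq2. Without any 1 library, 73 to 75 members fell.

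Over the whole interval 57 of 82 members were lower and 2 were higher; the day 6 libraries lay wholly below those of day 1 for 54, against 19.7% of all tested genes. The calls compare with 39.9% of all tested genes (21.3% higher, 18.7% lower). The median log2 change was -0.25, against 0.02 over all genes. Scaling by library totals alone gave 34 lower and 5 higher, with a median of -0.12. By the TMM fit, 34 of 50 large subunit genes were lower (median -0.27), as were 23 of 32 small subunit genes (median -0.24). The difference between the steps, the late change minus the early one, was called lower for 75 members and higher for 1, against 17.7% and 17.5% of all tested genes (35.2% in either direction). Its median was -0.77 for the members and 0.04 over all genes. In all, 62 members rose and then fell, 61 of them core members, a pattern called in 4.66% of all tested genes. Because day 3 enters both steps, a high day 3 value alone adds to both, so the steps are not independent of each other.

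**Figure D2:**
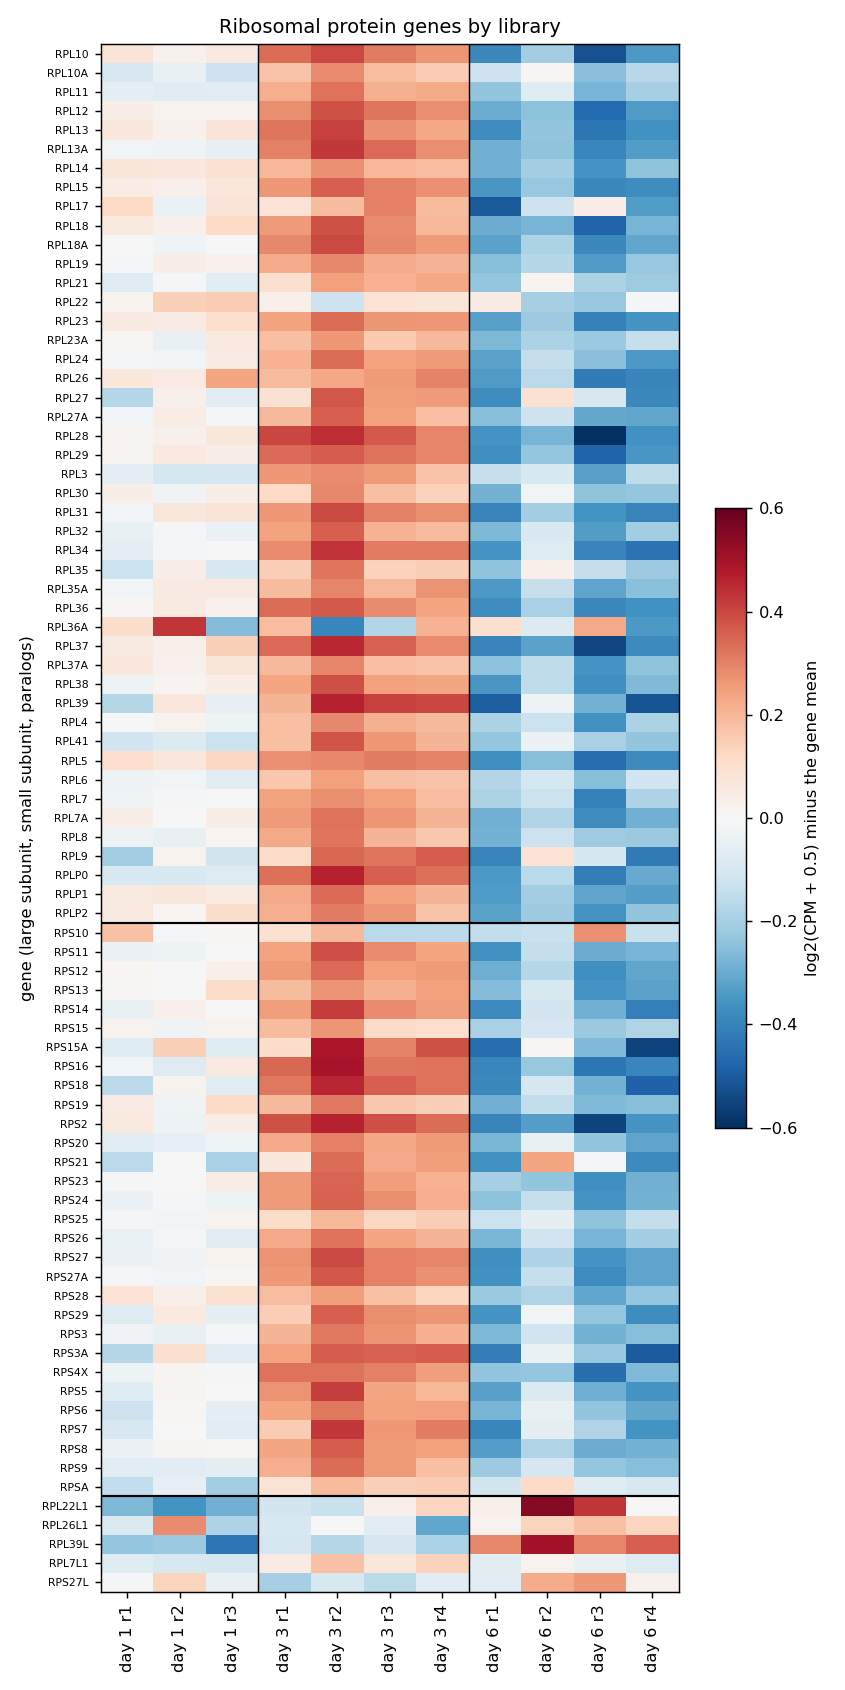
Level of tested ribosomal protein genes (rows) in each of the 11 libraries (columns, r = replicate), as log2(CPM + 0.5) minus the mean of the gene, from blue (lower) to red (higher). Core large subunit, core small subunit and paralog genes are separated by horizontal lines. Most core rows are red on day 3 and blue on day 6, and the paralogs RPL39L and RPL22L1 are highest on day 6.

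The acidic stalk of the large subunit, built of RPLP0, RPLP1 and RPLP2, recruits the elongation factors. RPLP0, its anchor on the ribosomal RNA, was 1408, 1407 and 1422 CPM (day 1), 1889, 2077, 1928 and 1890 CPM (day 3) and 1180, 1342, 1124 and 1216 CPM (day 6). The day 3 libraries were the highest and the day 6 libraries the lowest, with no overlap between days. RPLP0 had the largest early rise of any member (log2 change 0.46, SE 0.0702, adjusted p = 0.0003, edgeR), and its late fall was also called (log2 change -0.68, SE 0.0646, adjusted p = 8.47e-08, edgeR).

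RPLP1, which binds the anchor as a dimer with RPLP2, was 1040, 1047 and 1033 CPM (day 1), 1169, 1263, 1186 and 1149 CPM (day 3) and 788, 864, 801 and 795 CPM (day 6). RPLP2 was 280.3, 272 and 290.3 CPM (day 1), 314, 333, 324 and 304 CPM (day 3) and 216, 232, 209.8 and 229 CPM (day 6). In both genes the 3 days were separate in the same order as in RPLP0. The early rises of RPLP1 and RPLP2 were smaller, 0.20 (SE 0.0615) and 0.18 (SE 0.0566) on the log2 scale, and the late changes were -0.55 (SE 0.0569) and -0.52 (SE 0.0525). Day 6 lay below day 1 for all of these stalk genes, with net log2 changes of -0.22, -0.36 and -0.34 (edgeR adjusted p = 0.018, 0.000122 and 8.69e-05). All rises and falls named in this paragraph passed the threshold.

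After RPLP0, the largest early rises were those of RPS18, RPL39, RPL9 and RPS16. RPS18, a protein of the small subunit head, was 529, 598 and 562 CPM (day 1), 733, 809, 754 and 738 CPM (day 3) and 451, 549.7, 484 and 420.4 CPM (day 6). Every day 3 library exceeded every other library (log2 change 0.43, SE 0.0788, adjusted p = 0.00138 for the early step, edgeR). RPL39, a very short protein of the peptide exit tunnel, was 307, 362 and 334 CPM (day 1), 398, 476, 459 and 457 CPM (day 3) and 245, 338, 284 and 241 CPM (day 6). Its day 3 libraries were again the highest, while day 1 and day 6 overlapped; the early step gave a log2 change of 0.42 (SE 0.106, adjusted p = 0.0177, edgeR).

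RPL9, near the stalk base, gave an early log2 change of 0.39 (SE 0.112, adjusted p = 0.0371, edgeR), and its day 6 range of 334 to 476 CPM overlapped that of day 1. RPS16, also of the small subunit head, was 463, 443 and 486 CPM (day 1), 594, 659, 585 and 588 CPM (day 3) and 356, 399.6, 346 and 357 CPM (day 6). The days did not overlap, with day 3 high and day 6 low (log2 change 0.39, SE 0.0657, adjusted p = 0.000852 early and log2 change -0.73, SE 0.0607, adjusted p = 1.64e-08 late, edgeR).

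The largest late falls were those of RPS2, RPL28, RPL37, RPS16 and RPL39. RPS2, a small subunit protein at the messenger RNA entry channel, was 664, 623 and 655 CPM (day 1), 831, 878, 833 and 803 CPM (day 3) and 485, 506, 433 and 498 CPM (day 6). Its 3 days were separate, and it had both the largest late fall (log2 change -0.80, SE 0.0596, adjusted p = 4.47e-09, edgeR) and the largest difference between steps (log2 change -1.17, SE 0.104, adjusted p = 1.58e-07, edgeR).

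RPL28, a large subunit protein and the member with the highest CPM, was 2079, 2103 and 2155 CPM (day 1), 2715, 2793, 2653 and 2516 CPM (day 3) and 1604, 1693, 1336 and 1600 CPM (day 6). RPL37, a small zinc-binding protein of the large subunit, was 476, 468 and 506 CPM (day 1), 581, 629, 587 and 558 CPM (day 3) and 349, 367, 314 and 352 CPM (day 6). In both genes every day 6 library lay below every day 1 library. The late changes were -0.78 (SE 0.0722) for RPL28 and -0.77 (SE 0.0594) for RPL37, and that of RPL39 was -0.69 (SE 0.0974). In the difference between steps, the most negative values after RPS2 were -1.14 for RPLP0, -1.12 for RPS16, -1.11 for RPL28 and -1.11 for RPL39, all called by edgeR.

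From day 1 to day 6 the largest net falls were RPL37 (log2 change -0.49, SE 0.0635, adjusted p = 7.31e-06, edgeR), RPL5, RPL26, RPL28 (-0.44, SE 0.0771) and RPS2 (-0.43, SE 0.0637). RPL5 and RPL11 bind the 5S ribosomal RNA and, outside the ribosome, the ubiquitin ligase MDM2. RPL5 was 624, 609.9 and 633 CPM (day 1), 703, 710.3, 719 and 714 CPM (day 3) and 449.6, 486, 423 and 446 CPM (day 6). RPL11 was 534, 530.4 and 534 CPM (day 1), 648, 698, 647 and 652 CPM (day 3) and 472, 529, 459 and 485 CPM (day 6). Both were high on day 3 and low on day 6 without overlap, but net change was called for RPL5 (log2 change -0.46, SE 0.0581, adjusted p = 4.61e-06, edgeR) and not for RPL11 (log2 change -0.13, SE 0.0604, adjusted p = 0.0903, edgeR). Whether these net changes differ from each other was not tested.

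Of the other genes tied to the 5S particle, RRS1 and RPF2, which load the particle onto the large subunit precursor, moved in the opposite order to RPL5. RRS1 averaged 11.9 ± 0.522, 9.20 ± 0.463 and 14.9 ± 2.19 CPM on days 1, 3 and 6 (log2 change -0.37, SE 0.103 early, and 0.70, SE 0.0948 late). RPF2 averaged 20.9 ± 0.272, 17.5 ± 0.965 and 23.7 ± 0.773 CPM (log2 change -0.26, SE 0.0679 early, and 0.44, SE 0.0628 late), and all 4 changes were called. MDM2 rose late (log2 change 0.18, SE 0.0612, adjusted p = 0.0229, edgeR). CDKN1A, an inhibitor of the cell cycle, was not called in the late step by edgeR (log2 change 0.03, SE 0.0582, adjusted p = 0.67). Over the 9 genes of this list, RPL5 and RPL11 included, 2 rose and 3 fell early, beside 6.88% and 5.9% of all genes. In the late step 4 rose and 2 fell, beside 26.4% and 23.4%, with log2 changes from -0.66 to 0.82. From day 1 to day 6, 4 were higher and 2 lower, beside 21.3% and 18.7%. Not all of these genes are named here.

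Among the genes whose loss causes Diamond-Blackfan anaemia, an inherited failure of red cell production from too few ribosomes, 12 of 19 rose early, against 62 of all 82 members and 6.88% of all genes. In the late step 18 of these 19 fell, the exception being RPS10, against 74 of 82 members and 23.4% of all genes. At the end 12 of 19 were below day 1, against 57 of 82 members and 18.7% of all genes, and their median was -0.29 against -0.25 over all members. RPS19, the gene most often affected, was 332, 316 and 347 CPM (day 1), 367, 399.6, 358 and 355 CPM (day 3) and 263, 290, 267 and 269 CPM (day 6). Its days were separate, the early change missed the threshold (log2 change 0.16, SE 0.0602, adjusted p = 0.0976, edgeR) and the late fall passed it (log2 change -0.44, SE 0.0558, adjusted p = 2.47e-06, edgeR).

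**Figure D3:**
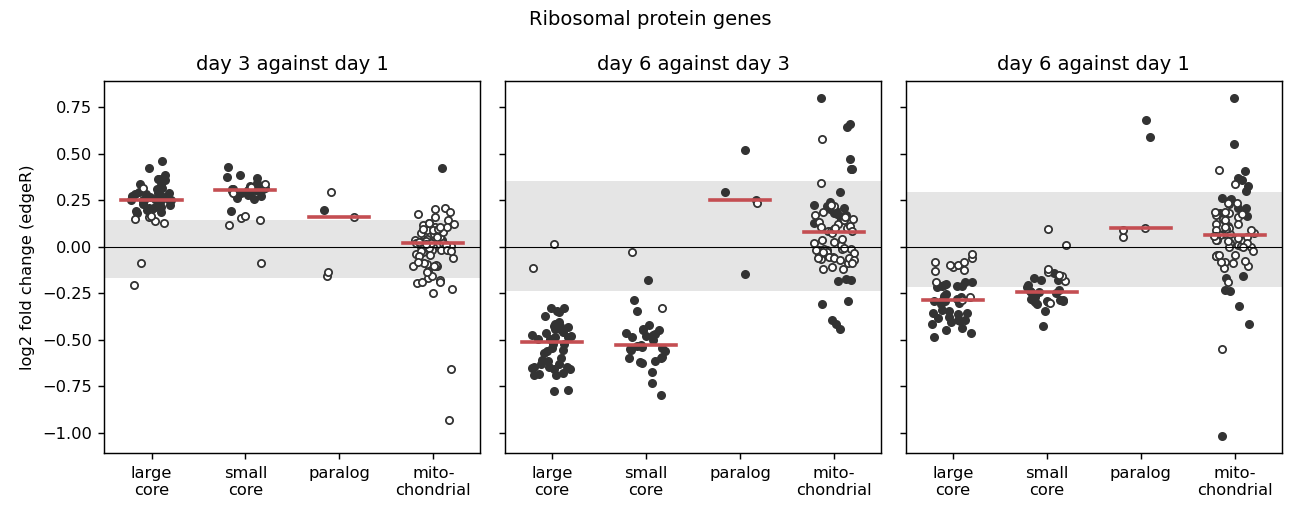
Log2 fold change of each tested gene in 3 comparisons, for core large subunit, core small subunit, paralog and mitochondrial ribosomal protein genes. Filled points passed the edgeR threshold, open points did not, red lines are medians, and the grey band runs from the lower to the upper quartile of all tested genes. Of the 77 core genes 74 lie above 0 in the early step, and most lie below 0 in the late step, with medians of -0.51 (large) and -0.53 (small), while the paralog median in the late step is 0.25.

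Of the 5 tested paralogs, in the late step 3 rose, 1 fell and 1 was not called (median log2 change 0.25), against 73 fallen of 77 core members (median -0.52). Over all tested genes 26.4% rose and 23.4% fell in this step. In the early step 1 paralog rose and 4 were not called, beside 6.88% of all tested genes rising. Over the whole interval 2 were higher and 3 were not called, beside 21.3% of all tested genes higher. RPL39L, known mainly from testis and some tumours, was 10.8, 10.9 and 9.32 CPM (day 1), 11.9, 11.3, 11.9 and 11.1 CPM (day 3) and 15.7, 18.3, 15.8 and 16.5 CPM (day 6). All day 6 libraries exceeded all others, with a late log2 change of 0.52 (SE 0.0785, adjusted p = 2.04e-05, edgeR) and a net log2 change of 0.68 (SE 0.0856, adjusted p = 4.68e-06, edgeR).

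RPL22L1 encodes a near copy of RPL22, and in human and mouse cells RPL22 protein is known to hold its messenger RNA down. RPL22L1 was 19.2, 18.1 and 19.0 CPM (day 1), 21.5, 21.2, 23.8 and 25.5 CPM (day 3) and 23.8, 34.2, 31.5 and 23.3 CPM (day 6). Day 6 was split, as in some other members, with replicates 2 and 3 high and replicates 1 and 4 within the day 3 range. The net rise was called (log2 change 0.59, SE 0.122, adjusted p = 0.00125, edgeR), as was the late step (log2 change 0.30, SE 0.111, adjusted p = 0.0382, edgeR), whereas the early step was not (log2 change 0.30, SE 0.123, adjusted p = 0.134, edgeR).

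RPL22 itself, with a counted pyrimidine run of 11 bases at its annotated start, was 59.2, 64.3 and 64.8 CPM (day 1), 59.6, 53.3, 61.8 and 61.3 CPM (day 3) and 60.2, 50.7, 49.7 and 57.9 CPM (day 6). Its libraries overlapped on all days. Neither step was called (log2 change -0.09, SE 0.0715, adjusted p = 0.472 early and log2 change -0.11, SE 0.0665, adjusted p = 0.172 late, edgeR), and the net fall was (log2 change -0.20, SE 0.0713, adjusted p = 0.0315, edgeR).

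RPS27L, a near copy of RPS27, was 85.6, 94.6 and 83.7 CPM (day 1), 75.1, 80.7, 76.9 and 82.2 CPM (day 3) and 82.2, 101, 103 and 87.8 CPM (day 6). Its day 3 libraries were the lowest and lay below all of day 1, while day 6 reached from the day 3 range to above day 1. It was the 1 member called higher in the late step relative to the early step (log2 change 0.41, SE 0.121, adjusted p = 0.0131, edgeR), while RPL26L1 (0.37, SE 0.179) and RPL39L (0.36, SE 0.143) had the next values and were not called. Without day 3 replicate 1 this call was lost (0.36, adjusted p = 0.0558, edgeR), leaving no member called higher. Its late rise was called (log2 change 0.25, SE 0.0677, adjusted p = 0.00491, edgeR). RPS27, its core counterpart, was 655, 662 and 680.1 CPM (day 1), 807, 882, 828 and 821 CPM (day 3) and 520.3, 589.8, 523 and 539 CPM (day 6), with separate days in the usual order of day 3 high and day 6 low.

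RPL26L1 was 11.6, 15.2 and 10.8 CPM (day 1), 11.5, 12.4, 11.8 and 9.88 CPM (day 3) and 12.6, 13.6, 14.0 and 13.6 CPM (day 6). The day 6 libraries lay above the day 3 libraries, but the change missed the threshold (log2 change 0.24, SE 0.0996, adjusted p = 0.0542, edgeR). RPL26, a protein of the large subunit, was 50.7, 50.4 and 57.3 CPM (day 1), 55.4, 57.1, 58.2 and 59.8 CPM (day 3) and 38.3, 43.4, 36.2 and 36.9 CPM (day 6), and all day 6 libraries were below the rest. Its late fall was called (log2 change -0.57, SE 0.0626, adjusted p = 4.31e-07, edgeR).

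RPL7L1, related to a yeast ribosome assembly factor, was 120.1, 118 and 118 CPM (day 1), 131, 143, 133 and 139 CPM (day 3) and 121, 128, 123 and 120 CPM (day 6). It rose early (log2 change 0.20, SE 0.0515, adjusted p = 0.0152, edgeR) and fell late (log2 change -0.15, SE 0.0475, adjusted p = 0.0138, edgeR), the order seen in core members, and its net change was not called (log2 change 0.05). RPL7 averaged 456 ± 3.47, 542 ± 14.8 and 393 ± 31.8 CPM, with a late change of -0.46 (SE 0.0588).

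**Figure D4:**
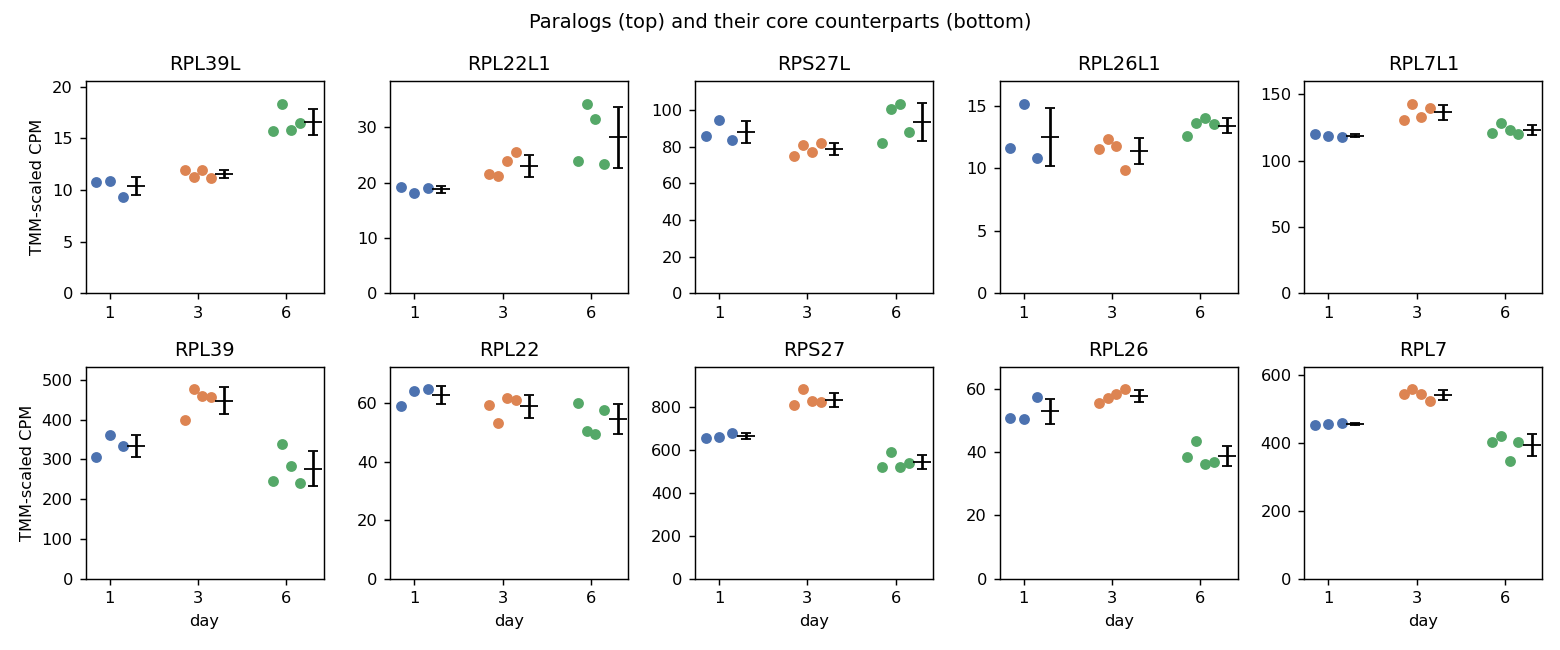
Level of 5 paralogs (top) and their core counterparts (bottom) by day, as TMM-scaled CPM from 0. Points are libraries (n = 3, 4 and 4), and bars are the mean ± SD. RPL39L and RPL22L1 are highest on day 6 (means 16.6 and 28.2 CPM), while RPL39, RPS27, RPL26 and RPL7 are lowest on day 6.

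Ratios within a library do not depend on scaling. As a share of the counts of each pair, RPL39L was 3.01% on day 1, 2.53% on day 3 and 5.71% on day 6. The mean log2 ratio of RPL39L to RPL39 rose by 1.22 in the late step and by 0.96 over the whole interval. The share of RPS27L in its pair went from 11.7% to 8.62% and 14.7%, a log2 ratio change of -0.48 early and 0.86 late. RPL26L1 held 19.2%, 16.5% and 25.9% of its pair, with a late change of 0.82. RPL7L1 held 20.7%, 20.1% and 23.9%, with a late change of 0.32.

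For those 4 pairs the day 6 libraries did not overlap the day 3 libraries in ratio, nor those of day 1. The core gene of each of these pairs fell late, so an unchanged gene would also rise in ratio to it. RPL7L1 itself fell late while its ratio rose. With libraries scaled to the members as a set, 68.6% of all tested genes were called higher in the late step. RPL22L1 held 23%, 28% and 34% of its pair, with 28.3% to 40.3% on day 6. Its log2 ratio changed by 0.38 early without overlap and by 0.39 late with overlap (exact two-sided permutation test, p = 0.171). Over 6 pairs and 3 comparisons there were 18 exact permutation tests. The smallest p that 3 against 4 or 4 against 4 libraries allow is 0.0286, and 10 tests reached it, but their Benjamini-Hochberg adjusted p was 0.0515, so none passed the correction. The shares are of counts and not per length, so only their change with day can be read.

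The pair of RPL36A and its near copy RPL36AL rests on few counts. RPL36A had 14 to 40 counts per library, and the log2 ratio of RPL36AL to RPL36A overlapped between all days (exact two-sided permutation p = 0.429 early and 0.114 late). RPL36AL, which lies outside the name rule, averaged 238 ± 9.06, 267 ± 10.4 and 172 ± 13.5 CPM and fell late (log2 change -0.63, SE 0.058, adjusted p = 5.23e-08, edgeR).

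In the early step 20 members, core genes and paralogs, were not called. Those of the large subunit were RPL14, RPL17, RPL22, RPL22L1, RPL26, RPL26L1, RPL27, RPL30, RPL36A, RPL37A and RPL39L. Over all 20, the log2 changes ran from -0.20 to 0.34 and the adjusted p from 0.0648 to 0.853 by edgeR. In 11 of them all day 3 libraries nonetheless lay above day 1, in 1 (RPS27L) below, and in 8 the days overlapped. RPS28 is an example of a small but separated change, at 0.12 (SE 0.0526).

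In the late step 5 members were not called. RPS21 was 115, 129 and 113 CPM (day 1), 135, 163, 151 and 154 CPM (day 3) and 100, 152, 128 and 98.8 CPM (day 6), with day 6 replicate 2 within the day 3 range and the other day 6 libraries below it (log2 change -0.33, SE 0.128, adjusted p = 0.0541, edgeR). RPL22 and RPL26L1 are given above. RPS10 had 24 to 45 counts per library and RPL36A had 14 to 40. Their late log2 changes were -0.03 (SE 0.213) and 0.02 (SE 0.282). With such standard errors, changes of the size seen in many other members could be missed at this depth.

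RPL17, with 165 to 272 counts per library, was also low for a core gene. Pseudogene rows carrying the same names held more: 50 rows and 1109 to 1782 counts for RPL17, 52 rows and 1089 to 1711 for RPL36A, and 17 rows and 341 to 523 for RPS10. The readthrough rows that join RPL17, RPL36A and RPS10 to a neighbour held at most 3 counts in a library, and counts of other overlapping rows were not examined. Across all members, 1660 pseudogene rows held 4.83% to 5.68% of the counts of members and pseudogenes together. Of the 84 members, 25 shared over 50% of their 50-base stretches with another annotated gene, and 32 overlapped another protein-coding row. The treatment of such reads by the authors is not given in the sources used here. With pseudogene counts added to the members, 61 rose early and 76 fell late, and RPL36A then changed by 0.25 early and -0.48 late.

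RPSA, the small subunit protein also known as the laminin receptor precursor, had the mildest late fall of the called core members. It was 330.2, 353 and 316 CPM (day 1), 387, 417, 403 and 406 CPM (day 3) and 338, 397, 348 and 342 CPM (day 6). Day 6 replicate 2 lay within the day 3 range and the other day 6 libraries lay below it (log2 change -0.18, SE 0.0592, adjusted p = 0.0171, edgeR), and day 6 overlapped day 1 (log2 change 0.10, SE 0.0641, adjusted p = 0.251, edgeR). RPS25, a small subunit protein needed by some viral internal ribosome entry sites, had a late change of -0.29 (SE 0.0508), and all its day 6 libraries were below the rest.

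Over the whole interval 23 members were not called, with log2 changes from -0.30 to 0.10. Those of the large subunit were RPL3, RPL6, RPL7L1, RPL9, RPL10A, RPL11, RPL17, RPL21, RPL26L1, RPL27, RPL35, RPL36A, RPL39 and RPL41. In the small subunit they included RPS6 and RPSA. RPS6, the substrate of the S6 kinases, was 737, 811 and 772 CPM (day 1), 949, 1003, 949.9 and 955 CPM (day 3) and 663, 779, 684 and 649.5 CPM (day 6). It was high on day 3, and day 6 overlapped day 1 (log2 change -0.16, SE 0.068, adjusted p = 0.0733, edgeR). RPL3, at the peptidyl transferase centre, averaged 1124 ± 18.9, 1414 ± 48.0 and 1060 ± 73.1 CPM, and RPL41, the shortest protein of the ribosome, 124 ± 2.07, 159 ± 9.97 and 118 ± 8.05 CPM.

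To see which members departed from the rest, the fit was repeated with libraries scaled to the geometric mean of the tested members, a setting added after the data were seen. In the early step 1 member was then higher, RPLP0 (0.22), and 3 were lower: RPS27L (-0.40), RPL26L1 (-0.38) and RPL22 (-0.33). In the late step 8 were higher: RPL39L (0.98), RPL22L1 (0.75), RPS27L (0.71), RPL26L1 (0.71), RPL22 (0.36), RPL7L1 (0.32), RPSA (0.29) and RPS25 (0.18). The 19 that were lower included RPS2 (-0.33), RPL28 (-0.31), RPL37 (-0.30) and RPS16 (-0.27). Under this scaling 38.1% of all tested genes were called in the early step, 1.41% higher and 36.7% lower, and 73.0% in the late step, 68.6% higher and 4.43% lower. A late call of higher against the members was therefore the outcome for most genes. Relative to the members as a set, 78 of 82 were not called early and 55 of 82 were not called late.

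Over the whole interval 8 members were higher relative to the set, RPL39L (0.90), RPL22L1 (0.80), RPL26L1 (0.32), RPSA (0.31), RPS27L (0.31), RPL7L1 (0.27), RPL10A (0.18) and RPL41 (0.16), and 11 were lower, with 48.1% of all tested genes called (41.1% higher, 6.98% lower). For the difference between steps this scaling called 8 members higher and 10 lower, against 64.7% and 2.77% of all tested genes. Scaling by library totals alone left 66 members lower and 4 higher in the late step. That scaling moved the median late change of all tested genes to 0.22 and split their calls into 7885 higher and 2239 lower, while the members' median was -0.31. RPSA and RPL7L1 then stood at 0.01 and 0.04 in the late step, so the direction of their late change depended on the scaling.

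Members with a counted pyrimidine run and members without one had medians in the same direction. The run was counted only within 5 bases of an annotated start. A member without one, such as RPL17, may still hold a pyrimidine stretch farther from that start. The comparison therefore does not separate genes with a TOP tract from genes that lack it. The 54 with a run had median log2 changes of 0.27 early, -0.52 late and -0.28 overall. The 12 tested members with a promoter but no counted run, which include 3 paralogs, had medians of 0.24, -0.43 and -0.15. Among those with a run, 49 fell late and 1 rose (RPL22L1), and among those without, 10 fell and 1 rose (RPS27L).

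Ribosomal protein genes outside the name rule also fell in the late step. Among them are RPL36AL, FAU, which encodes a ribosomal protein fused to another domain, and the scaffold protein RACK1. RACK1 averaged 1155 ± 34.0, 1404 ± 45.0 and 779 ± 41.4 CPM and fell late by edgeR (log2 change -0.85, SE 0.059, adjusted p = 2.13e-09). Of 15 tested translation factors and partners with known TOP tracts, 2 rose early (EEF1B2 and RACK1, which both lists hold) and 14 fell late, with a late median of -0.62, beside 6.88% of all genes rising early and 23.4% falling late. EEF2, which moves the ribosome along the messenger RNA, averaged 5349 ± 266, 6418 ± 260 and 2627 ± 384 CPM and fell, with a change more negative than that of any member (log2 change -1.29, SE 0.0904, adjusted p = 2.37e-09, edgeR). The late changes of EEF1A1 and EIF4B were -0.70 (SE 0.0827) and -0.92 (SE 0.0768), HNRNPA1 was not called (0.09, SE 0.0579), and EEF1G is listed at 0 in every library.

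Of 76 tested genes for proteins of the mitochondrial ribosome, 1 rose early (median 0.02), against 6.88% of all genes. In the late step 19 rose and 8 fell (median 0.08), against 26.4% and 23.4%, and 14 were higher and 7 lower from day 1 to day 6 (median 0.06), against 21.3% and 18.7%. Messenger RNA of the mitochondrial genome took 3.00% to 3.49% of counts on day 1, 2.30% to 2.75% on day 3 and 2.22% to 3.58% on day 6. Its part in the members' shares was not tested.

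Of 46 ribosome assembly factors, 16 rose and 10 fell late (median 0.07), beside 26.4% and 23.4% of all genes, and 19 were higher and 5 lower from day 1 to day 6, beside 21.3% and 18.7%. RRS1 rose and NOB1, the nuclease that finishes the small subunit RNA, fell (log2 change -0.68, SE 0.0586, adjusted p = 2.68e-08, edgeR), as did the nucleolar chaperone NPM1 (-0.45, SE 0.0573). Of 29 genes of RNA polymerases I and III and their factors, 8 rose and 8 fell late, shares near those of all genes. POLR1A and POLR1B, the largest subunits of polymerase I, rose by 0.49 (SE 0.0667) and 0.39 (SE 0.0655), UBTF, its factor at ribosomal DNA, rose by 0.35 (SE 0.0568), and POLR1D, shared with polymerase III, fell (log2 change -0.68, SE 0.0525, adjusted p = 6.6e-09, edgeR).

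MYC, a transcription factor known to raise ribosomal genes, averaged 5.57 ± 0.643, 7.32 ± 0.524 and 12.4 ± 3.41 CPM on days 1, 3 and 6. Its mean was higher on day 3 than on day 1, as in most core members. MYC rose again late (log2 change 0.76, SE 0.158, adjusted p = 0.000927, edgeR), while most core members fell. The part of MYC in the members' changes was not tested. Of 9 tested genes of its network, 2 rose late (MYC and MXD3) and 5 fell, beside 26.4% and 23.4% of all genes. In the list on mTORC1 and TOP control, none of 18 was called early by edgeR, with 2 higher and 2 lower at an unadjusted p under 0.05. In the late step 2 rose and 6 fell, beside 26.4% and 23.4% of all genes. The late log2 changes of the 18 genes ran from -1.62 to 1.42, with a median of -0.12, and only some of them are named here. RPTOR, a defining subunit of mTORC1, rose by 0.56 (SE 0.0618), which was not the largest positive change of the list. DDIT4 and SESN2, stress-induced inhibitors of mTORC1, fell, with log2 changes of -1.62 (SE 0.208) and -0.44 (SE 0.0732), while MTOR (-0.04, SE 0.0543) and LARP1 (-0.01, SE 0.0524) were not called. Levels of messenger RNA do not measure the activity of this pathway.

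**Figure D5:**
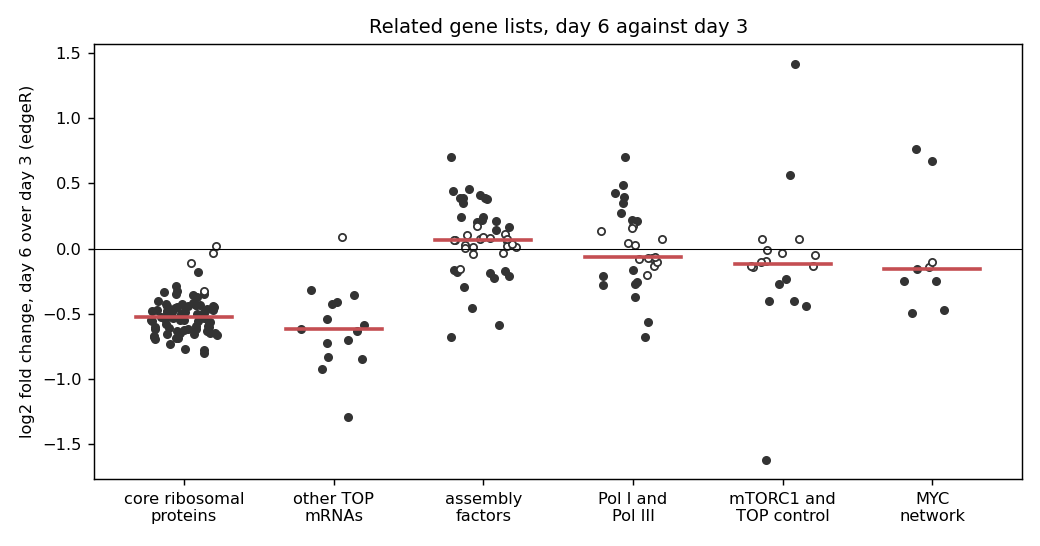
Log2 fold change from day 3 to day 6 of each tested gene in 6 groups of genes. Filled points passed the edgeR threshold, open points did not, and red lines are medians. Core ribosomal protein genes and other TOP messenger RNAs lie almost wholly below 0 (medians -0.52 and -0.62), while assembly factors and RNA polymerase I and III genes lie on both sides.

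Markers of cell types moved over the same days, and their part in the members' changes was not tested. All 7 tested smooth muscle markers were called higher on day 6 than on day 3, beside 26.4% of all tested genes. Among them were ACTA2 (1.68, SE 0.123) and CNN1 (1.41, SE 0.0851). In the early step 1 of the 7 rose and 1 fell, beside 6.88% and 5.9% of all tested genes. Of 4 epithelial markers, KRT8 and KRT18 were tested, and both rose early and fell late. KRT8 had log2 changes of 0.42 (SE 0.0764) early and -0.92 (SE 0.0719) late, and KRT18 had 0.27 and -0.19. From day 1 to day 6 KRT8 changed by -0.50 and KRT18 by 0.08, against a median of -0.25 over the members. The summed epithelial level was 36.0 to 41.4 CPM on day 1, 47.8 to 51.7 CPM on day 3 and 29.2 to 32.7 CPM on day 6, with EPCAM and CDH1 at no more than 3 counts. Endothelial markers summed to 31.5 to 33.5, 32.3 to 35.8 and 26.8 to 32.7 CPM, nearly all of it PECAM1, and leukocyte markers to 7.41 to 11.1, 4.80 to 6.72 and 3.44 to 9.59 CPM with PTPRC at no more than 1 count.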

How the data were processed

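RNA-seq counts of 11 libraries were analysed. The table that the authors deposited gives raw, whole-number counts per gene, 1 column per library, and the column names matched the sample labels. GRCh38, STAR 2.7.11b, featureCounts 2.0.8, Subread, Salmon 1.10.0 and DRAGEN appear in the submitters' processing notes without a role. How multi-mapping reads and strand were handled is not given in the sources used here. Of 79031 rows, 99 name no human gene (at most 1 count each) and were left out. Library totals were 28071813 to 33021509 counts. Limits from low counts cover counting error only, since reads carry no molecular identifiers.

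Genes were kept by filterByExpr with days as groups (at least 10 counts, total at least 15), leaving 18245. The test was edgeR 4.0.16 (R 4.3.3), quasi-likelihood with robust fit, TMM factors and day as a factor over all 11 libraries, adjusted by Benjamini-Hochberg over all genes at 0.05. SE is the log2 change divided by the root of F. Ratios of paralogs used counts + 0.5 and an exact permutation test over libraries. Scripts were tested on simulated counts.

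Genes named are all members, with values in full for the paralog pairs, the stalk genes, the 5 largest changes in each direction, members not called where most were called (as ranges where many) and the members of highest and lowest CPM. The members, gene lists and tests were chosen with earlier results of these data known. Alternatives were RLE factors, library totals, TMM without the members, DESeq2 1.42.0, other filters, only the days compared, a replicate block, added pseudogene counts, leaving out each library, and scaling to the members. Some genes are not reported here by name.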

Additional observations from a re-analysis of the deposited data

Results flagged for a closer look

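Of 114 groups of 4 libraries examined for a single far value (Dixon's test), 11 were flagged, and chance flags about 1 in 20. On day 3, replicate 2 lay above the others for RPL11 (698 CPM, others 647 to 652), RPL14 (517 CPM, others 487 to 492), RPL35 (407 CPM, others 359 to 361), RPS16 (659 CPM, others 585 to 594) and RPS6 (1003 CPM, others 949 to 955). On day 6, replicate 2 lay above the others for RPL21 (301 CPM, others 253 to 261), RPLP1 (864 CPM, others 788 to 801) and RPSA (397 CPM, others 338 to 348). In both libraries the median core gene was the highest of the day, and the cause was not tested.

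RPS10 on day 6 had 1.37 CPM in replicate 3 against 0.891 to 0.908 CPM in the others, at 24 to 45 counts per library over all days. The log2 ratio of RPL7L1 to RPL7 on day 6 was -1.50 in replicate 3, above the other libraries. The pseudogene share of the counts of members and pseudogenes on day 3 was 5.05% in replicate 1, above the other libraries of that day.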

How the results depend on the processing

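The count of members that fell late, 74, lay between 66 and 76 under the alternatives other than scaling to the members themselves. That scaling, added after the data were seen, centres the members near 0 by construction. It gave 1 member higher and 3 lower early (median 0.0283), 8 and 19 late (median -0.0309), 8 and 11 from day 1 to day 6 (median -0.0315), and 8 and 10 for the difference between steps (median -0.0568). Library totals alone gave a late median of -0.31, a day 1 to day 6 median of -0.12 with 5 higher and 34 lower, and a difference between steps of -0.52 with 3 higher. That scaling moved the median late change of all tested genes from 0.03 to 0.22, with calls for all genes split into 840 higher and 1630 lower early, 7885 and 2239 late, 5966 and 2040 from day 1 to day 6, and 5748 and 1684 for the difference between steps. RPL7L1 and RPSA changed sign in the late step (0.0365 and 0.0065). A filter of at least 1 CPM in 3 libraries gave 2 members higher in the difference between steps, and fitting only the days compared called 1 member lower early, RPS27L. With pseudogene counts added, RPL36A reversed (0.25 early, -0.48 late, -0.72 for the difference), as did RPS10 in the difference (-0.66) and the early log2 ratio of RPL36AL to RPL36A (-0.0857, from 0.37).

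Replicate numbers gave no clear sign of pairing, but the check cannot exclude it. Deviations from the day means correlated at r over 0.1 in 1 of 10 pairs of the same number (r from -0.02 to 0.10). With the replicate block by number, 63 members rose early, and with a replicate block by the letter of the column name, 38, with r from -0.08 to 0.02 for 8 pairs. Leaving out 1 library gave 38 (day 1 replicate 1) to 66 members higher early, 2 to 4 higher and 73 to 75 lower late, 46 to 63 lower on day 6 than day 1, and 0 (day 3 replicate 1) to 3 higher in the difference between steps. Over all tested genes, early calls numbered 2332, against 1344 and 1352 without day 1 replicate 1 or 2, 3617 with only the days compared and 6951 scaled to the members, which also gave 12319 for the difference between steps (6423 otherwise). For single members and related genes, 3567 comparisons with an alternative kept call and direction, 95 gained a call, 150 lost one and 6 reversed. Low depth limits RPL36A and RPS10 (14 to 45 counts).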
